A study of Mus musculus with 6 samples.

Results

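The transcripts of the PI3K, AKT, mTOR and FOXO pathway were compared between mouse pre-B cells with and without Dusp6, an ERK phosphatase. The members are 37 genes chosen by name for their place in the pathway. Of these, 36 were represented by a probe set carrying 1 gene symbol, among 19938 genes tested in all; Rps6kb1, the gene of an S6 kinase, was not analysed here. The cells were B cell precursors made leukaemic by BCR-ABL1, the oncogenic kinase that defines Ph+ acute lymphoblastic leukaemia, and their total RNA was hybridised to Affymetrix arrays. The control group was Dusp6 WT (3 arrays) and the other group Dusp6 KO (3 arrays). Both groups carry BCR-ABL1 and come from mice of the mixed strain C57Bl/6-SV129j. The labels give no age, and whether a genotype's arrays stem from separate animals, cultures or clones is not stated, so the p-values rest on a spread between samples that may be technical only.

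Class I PI3-kinases phosphorylate a membrane lipid after a receptor is engaged, and the product recruits PDK1 and AKT to the membrane. AKT inhibits GSK3, the TSC complex and the FOXO transcription factors, and release of Rheb from TSC activates mTORC1, which drives protein synthesis. In B cell precursors the pathway lies downstream of the pre-B cell receptor and of cytokine receptors, and BCR-ABL1 also feeds into it. FOXO1 is a regulator of the recombinase genes and of the interleukin-7 receptor gene in these cells.

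Values are log2 signals, and differences are knockout minus wild type on that scale. A gene is called, and said to rise or fall, at a limma adjusted p under 0.05 over all genes tested. Dusp6 itself averaged 12.44 (SD 0.072) on the 3 wild-type arrays and 9.08 (SD 0.058) on the 3 knockout arrays, with a limma adjusted p of 4.3e-10; the deleted region is not given in the labels. Of the markers of B cell precursors tested, 12 of 12 lay above the median gene signal and 9 above the upper quartile. Above the median lay 2 of 15 myeloid and mast cell markers, 1 of 12 T and NK cell markers, 1 of 8 erythroid and megakaryocyte markers and 3 of 11 stromal markers, and 0 in these 4 lists lay above the upper quartile. Of the T and NK cell markers 1 rose and 2 fell (25% called), and of the erythroid and megakaryocyte markers 1 rose and 0 fell (12.5%). Of the stromal markers 0 were called by limma (0 at an unadjusted p under 0.05, against 6092 of 19938 genes tested). The share called over all genes tested was 19.8%. In bulk RNA, fewer cells of a type and less RNA per cell cannot be told apart.

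Of the 36 members, 6 rose and 6 fell. This is 33.3% of the members, against 19.8% of all genes tested, and per direction 16.7% each against 9.66% rising and 10.2% falling over all genes. The members that rose were Irs2, Pik3r3, Pik3r5, Inpp4b, Sgk1 and Txnip, and those that fell were Igf1r, Phlpp1, Phlpp2, Akt2, Gsk3a and Foxo1. The changes were small: 0 members passed 2-fold, a size that 1.29% of all genes passed with a call. The median difference of the members was −0.020 (all genes 0.0018), and their median absolute difference was 0.11 (all genes 0.071). The genotypes were fully separated, with no overlap of their arrays, in 19 members (52.8%, against 35.7% of all genes), with the knockout above in 9 and below in 10. Members and all genes were not matched for signal in these comparisons, nor were the lists in other shares given here. With only genes at or above the median signal tested, 5 members rose and 7 fell. In that fit 1769 of 9969 genes rose and 2206 fell, and the called members Igf1r, Pik3r3 and Sgk1 were not tested.

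**Figure D1:**
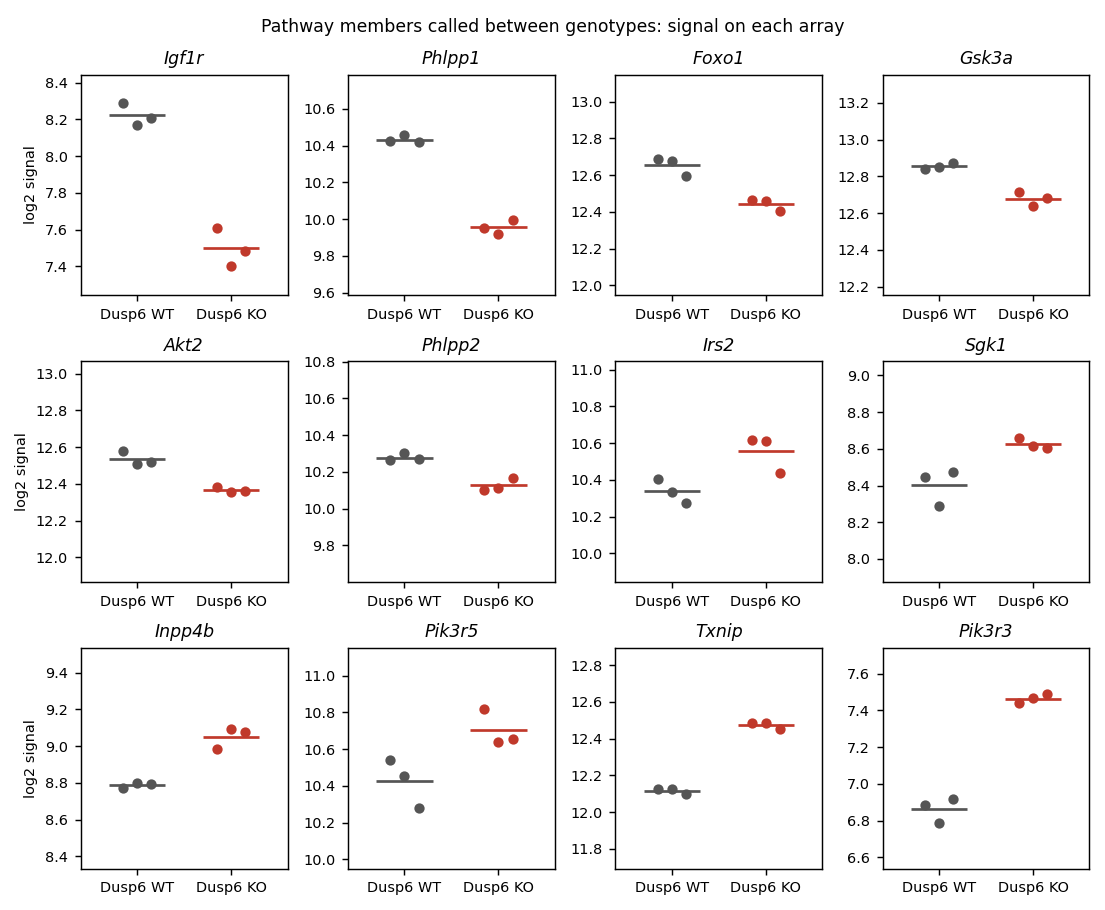
Log2 signal of the 12 called members on each array, with wild-type arrays in grey, knockout arrays in red and the group mean as a line. Each panel spans the same number of log2 units, so distances can be compared between panels, and the widest gaps are those of Igf1r (difference −0.72) and Pik3r3 (0.60).

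Upstream promoter sequences of some members are shown because FOXO factors and E-box factors bind defined letters there. RefSeq promoters (GRCm38.p6) were found for 32 of the 37 members, and the 250 bases before each of their 48 starts were searched on either strand. The FOXO element GTAAACA was found in Txnip, Akt1 and Pik3cg, that is in 6.25% of the member promoters and in 3.17% of all 32851 promoters. The E-box CACGTG was found in Irs1, Irs2, Rheb and Sgk1 (8.33% of member promoters, 6.02% of all), and the E-box variant CACGAG in Txnip and Pik3r2 (4.17% and 5.37%). These motifs do not overlap each other in the sequences shown, and a match describes letters, not a bound site. The Txnip sequence is given at 250 bases because it holds a FOXO element and a pair of E-box variants, and the others with up to 11 bases on each side of the motif; capitals mark the motifs, read 5′ to 3′ on the strand of the gene.
Txnip, chr3:96557707-96557956, plus strand: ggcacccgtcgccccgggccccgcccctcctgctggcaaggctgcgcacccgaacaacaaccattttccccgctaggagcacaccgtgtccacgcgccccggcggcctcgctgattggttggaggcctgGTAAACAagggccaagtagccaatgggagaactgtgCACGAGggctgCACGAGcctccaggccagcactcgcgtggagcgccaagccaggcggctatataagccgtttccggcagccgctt
Akt1, chr12:112675028-112675056, minus strand: atctaccctctTGTTTACactcctggtga
Pik3cg, chr12:32208545-32208573, minus strand: tttttcctaaaGTAAACAaatgatcctcc
Irs2, chr8:11008957-11008984, minus strand: taacgcagagtCACGTGttgttttgctc
Sgk1, chr10:21993640-21993660, plus strand: tcctCACGTGttcttggcatg
Irs1, chr1:82291538-82291565, minus strand: agaggctccgtCACGTGttttgctcctc
Rheb, chr5:24842441-24842468, minus strand: ccgcgcgcggtCACGTGggtgtgttgtt
Of the 3 members with a FOXO element, Txnip rose while Akt1 and Pik3cg were not called. Of the 4 with an E-box CACGTG, Irs2 and Sgk1 rose while Irs1 and Rheb were not called. Of the 2 with the variant CACGAG, Txnip rose while Pik3r2, which also holds a pair of matches, was not called.

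Among the 4 receptors and adaptors, Igf1r fell and Irs2 rose (50% called, against 19.8% of all genes). Igf1r encodes the receptor tyrosine kinase for insulin-like growth factors, and its signal was 8.29, 8.17 and 8.21 on the wild-type arrays and 7.61, 7.40 and 7.48 on the knockout arrays. The knockout values lay below each wild-type value, and the difference of −0.72 ± 0.060 (SE; 1.65-fold lower) was the largest of any member (limma adjusted p = 2.4e-05). The paralogous insulin receptor gene Insr had overlapping groups and a difference of −0.029 (95% interval −0.14 to 0.084), and its other probe set gave −0.039. Irs2, an adaptor that couples these receptors to PI3K, was 10.41, 10.33 and 10.28 in wild type and 10.62, 10.61 and 10.44 in knockout, a rise of 0.22 ± 0.059 (SE; limma adjusted p = 0.030). The lowest knockout value exceeded the highest wild-type value by little, and the call was lost without wild-type replicate 2 (adjusted p = 0.081), wild-type replicate 3 (0.101), knockout replicate 1 (0.085) or knockout replicate 2 (0.103). Irs1, the related adaptor, was spread over 8.48 to 8.91 in knockout and was not called (−0.17, 95% interval −0.40 to 0.054); its other probe set gave 0.040, of the opposite sign, and without knockout replicate 2 the difference was −0.034.

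A list of 18 IGF ligands, binding proteins and insulin adaptors included 3 genes that rose and 2 that fell (27.8% called, against 19.8% of all genes). Grb10, an adaptor that binds the IGF and insulin receptors and dampens their signalling, was 8.08, 8.29 and 8.03 in wild type and 9.95, 10.20 and 10.01 in knockout, a 3.77-fold rise (1.92 ± 0.081, SE; limma adjusted p = 2.4e-07). Igf1, the ligand of Igf1r, was 9.78, 9.71 and 9.63 in wild type and 8.48, 8.54 and 8.46 in knockout, a 2.32-fold fall (−1.21 ± 0.051, SE; limma adjusted p = 2.4e-07). Igf2r, the receptor that clears Igf2, fell by 0.96 and the binding protein gene Igfbp4 rose by 0.89. The fifth gene of the list to be called was the adaptor Shc1 (0.23), named after its value was seen. Thus the ligand gene Igf1 and both receptor genes Igf1r and Igf2r were lower in the knockout cells, while the list's median was −0.0081. Myeloid markers, from cells that can also express Igf1, summed to a linear signal of 3788 to 3897 in wild type and 3667 to 3798 in knockout. Of these 15 markers, Lyz2 rose by 0.70, Csf2ra fell by 0.59 and the other 13 were not called (13.3% called, against 19.8% of all genes). Their part in the Igf1 result was not tested.

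None of the 4 PI3K catalytic subunit genes was called by limma, against 19.8% of all genes. An unadjusted limma p under 0.05 was seen in 6092 of 19938 genes tested and in 1 of these 4. That gene was Pik3cb, at 7.48, 7.52 and 7.47 in wild type and 7.63, 7.64 and 7.57 in knockout, with no overlap and a difference of 0.12 ± 0.043 (SE; limma adjusted p = 0.087). Its wild-type mean of 7.49 lay close to the lower quartile of the genes (7.45) and was not tested against background. Pik3cd, the catalytic subunit gene most associated with lymphocytes, differed by 0.083 (95% interval −0.057 to 0.22), the ubiquitous Pik3ca by 0.027 (−0.074 to 0.13) and Pik3cg, whose product is driven by G protein subunits, by −0.045 (−0.15 to 0.059). The intervals of these 4 genes lay between −0.15 and 0.22.

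Of the 4 regulatory subunit genes, 2 rose and 0 fell (50% called, against 19.8% of all genes). Pik3r3, which encodes a short class IA regulatory subunit, was 6.88, 6.79 and 6.92 in wild type and 7.44, 7.47 and 7.49 in knockout, a 1.52-fold rise (0.60 ± 0.047, SE; limma adjusted p = 1.5e-05). The gap between the groups was far wider than the spread within them, although the wild-type mean of 6.86 lay below the lower quartile of the genes (7.45) and was not tested against background. Pik3r5, a class IB subunit that pairs with the Pik3cg product, was 10.54, 10.45 and 10.28 in wild type and 10.82, 10.64 and 10.66 in knockout, a rise of 0.28 ± 0.074 (SE; limma adjusted p = 0.026). Its call was lost without wild-type replicate 2 (adjusted p = 0.057), wild-type replicate 3 (0.073) or knockout replicate 1 (0.076). Pik3r6, the other class IB regulatory gene and not among the members, was 10.67, 10.61 and 10.55 in wild type and 11.05, 10.97 and 10.99 in knockout, and rose by 0.40 ± 0.047 (SE; limma adjusted p = 0.00024). Both class IB regulatory genes were therefore higher in the knockout cells, beside a Pik3cg difference within the spread of its arrays. Pik3r1, the main class IA regulatory gene, did not overlap between groups (12.22, 12.25 and 12.20 against 12.06, 12.16 and 12.13) but was not called (−0.11, limma adjusted p = 0.14), and Pik3r2 differed by −0.020 (95% interval −0.16 to 0.12).

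Of 17 other PI3K subunits, adaptors and lipid phosphatases tested, 2 rose and 3 fell (29.4% called, against 19.8% of all genes; median −0.012). Gab1, a docking protein that recruits PI3K, fell by 0.49 ± 0.049 (SE; limma adjusted p = 7.9e-05), and its relative Gab2, named after its value was seen, fell by 0.18 but was not called without wild-type replicate 1 or 2 or knockout replicate 1 or 3 (adjusted p from 0.063 to 0.117). Pik3ip1, a transmembrane inhibitor of PI3K, rose by 0.34, and the inositol phosphatase gene Inpp5k fell by 0.20. Inpp5d, which encodes the lipid phosphatase SHIP1 of blood cells and was also named after its value was seen, was not called (0.086, limma adjusted p = 0.17).

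The 3 phosphatase genes among the members were each called (19.8% of all genes were), Inpp4b upward and both PHLPP genes downward. Inpp4b removes a phosphate from a PI3K lipid product, and its signal was 8.77, 8.80 and 8.80 in wild type and 8.98, 9.10 and 9.08 in knockout, a rise of 0.26 ± 0.045 (SE; limma adjusted p = 0.0026). Phlpp1, a phosphatase that inactivates AKT, was 10.42, 10.46 and 10.42 in wild type and 9.95, 9.92 and 9.995 in knockout. The groups were tight and well apart, and the fall of 0.48 ± 0.042 (SE; 1.39-fold; limma adjusted p = 3.4e-05) was the next largest decrease of a member after Igf1r. Phlpp2 was 10.26, 10.30 and 10.27 in wild type and 10.10, 10.11 and 10.17 in knockout, a fall of 0.15 ± 0.041 (SE; limma adjusted p = 0.030). This smaller change lost its call when any array but knockout replicate 3 was left out (adjusted p from 0.073 to 0.097).

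**Figure D2:**
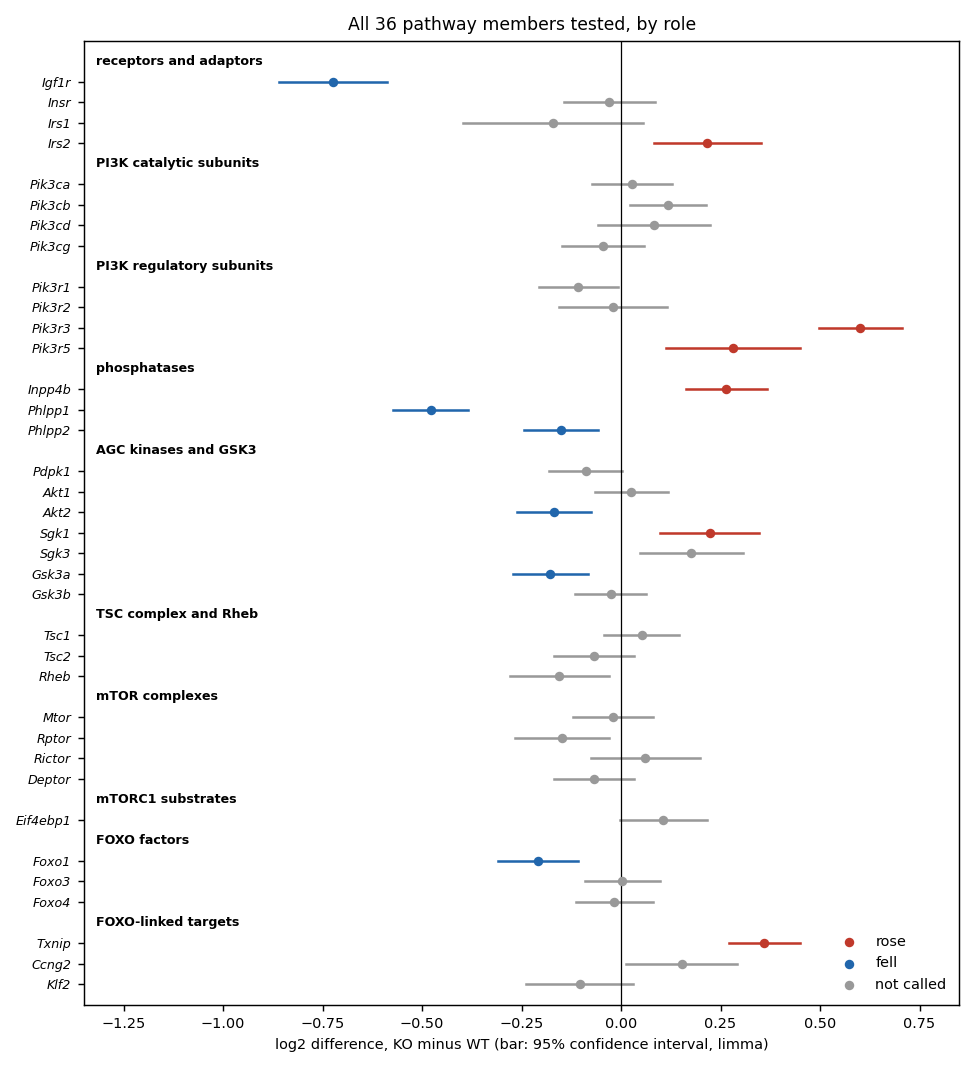
Log2 difference (knockout minus wild type) of the 36 members by role, with 95% confidence intervals from limma as bars; red marks a called rise, blue a called fall and grey no call. The phosphatase genes are all coloured, whereas the catalytic subunits, the TSC complex and the mTOR complexes are all grey. Each role holds only 1 to 7 genes, and 19.8% of all genes tested were called.

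Among the kinases downstream of PI3K, Sgk1 rose, Akt2 and Gsk3a fell, and 4 of 7 were not called (42.9% called, against 19.8% of all genes). Akt1, the most widely expressed AKT gene, was 13.09, 13.07 and 13.04 in wild type and 13.13, 13.07 and 13.08 in knockout, with overlapping groups and a difference of 0.026 (95% interval −0.067 to 0.12). Akt2 was 12.58, 12.50 and 12.52 in wild type and 12.38, 12.35 and 12.36 in knockout, a fall of 0.17 ± 0.041 (SE; limma adjusted p = 0.018). The second Akt2 probe set overlapped between groups, at 12.41, 12.35 and 12.27 against 12.30, 12.29 and 12.24, and was not called (−0.066, limma adjusted p = 0.48 over all probe sets). The probe set that gave the call lies by its number between Vstm2a and Egfr of chromosome 11, where the reference gene table (GRCm38.p6) lists the pseudogene Akt2-ps next to Egfr, whereas the second lies beside Ttc9b on chromosome 7, as the Akt2 gene does. Whether the called probe set reads Akt2, the pseudogene or both was not tested, so the Akt2 call is uncertain. Leaving out wild-type replicate 1 ended it (adjusted p = 0.081), as did leaving out knockout replicate 2 (0.051) or knockout replicate 3 (0.060).

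Sgk1, a kinase related to AKT that is activated by PDK1 and mTORC2, was 8.45, 8.29 and 8.47 in wild type and 8.66, 8.61 and 8.60 in knockout, a rise of 0.22 ± 0.055 (SE; limma adjusted p = 0.019). The groups did not overlap, but leaving out wild-type replicate 2 ended the call (adjusted p = 0.052), as did leaving out knockout replicate 1 (0.054) or 2 (0.051). Sgk3 also lay higher on the knockout arrays, at 12.64, 12.85 and 12.74 against 12.60, 12.51 and 12.60, but was not called (0.18, limma adjusted p = 0.062). It was called without knockout replicate 1 (adjusted p = 0.020), with trend and robust options (0.013) and with filters on dim genes (0.034 and 0.022). Gsk3a, a kinase that AKT inhibits, was 12.84, 12.85 and 12.87 in wild type and 12.72, 12.64 and 12.68 in knockout, a fall of 0.18 ± 0.042 (SE; limma adjusted p = 0.015) that was not called once wild-type replicate 3 was left out (adjusted p = 0.056). Its paralog Gsk3b differed by −0.027 (95% interval −0.12 to 0.062), and Pdpk1, the gene of PDK1, by −0.089 (−0.18 to 0.0028) without overlap of its groups. From the list of other AKT kinases, partners and substrates, 0 of 15 rose and 1 fell (6.67% called, against 19.8% of all genes). The gene that fell was the protein kinase C gene Prkca (−0.17, limma adjusted p = 0.030). It was not called without wild-type replicate 1 or 2 or knockout replicate 2 or 3 (adjusted p from 0.073 to 0.103).

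None of the 8 members of the TSC complex, the mTOR complexes and the mTORC1 substrates was called by limma, against 19.8% of all genes. Over all genes tested, 6092 of 19938 had an unadjusted limma p under 0.05, and 2 of these 8 did. Those were Rheb, the GTPase that activates mTORC1, and Rptor, the defining subunit of mTORC1. Rheb was 11.65, 11.66 and 11.71 in wild type and 11.52, 11.42 and 11.62 in knockout (−0.16, limma adjusted p = 0.085), and was called without knockout replicate 3 (adjusted p = 0.036). Rptor was 10.90, 11.03 and 10.89 in wild type and 10.79, 10.75 and 10.84 in knockout (−0.15, limma adjusted p = 0.079). Limma's trend and robust options called both (adjusted p = 0.031 for Rheb and 0.040 for Rptor), as did filters on dim genes. Both lay lower on each knockout array than on any wild-type array. The kinase gene Mtor differed by −0.021 (95% interval −0.12 to 0.080), the mTORC2 subunit gene Rictor by 0.061 (−0.076 to 0.20; 0.0039 without knockout replicate 2), the inhibitor gene Deptor by −0.069 (−0.17 to 0.032), Tsc1 by 0.051 (−0.042 to 0.14) and Tsc2 by −0.068 (−0.17 to 0.032). Eif4ebp1, a translation repressor that mTORC1 phosphorylates, was 11.43, 11.36 and 11.42 in wild type and 11.58, 11.44 and 11.51 in knockout, with no overlap and no call (0.11, limma adjusted p = 0.18).

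Of 37 other mTOR complex and nutrient sensing genes, 10 rose and 3 fell (35.1% called, against 19.8% of all genes; median 0.044). Prr5, which encodes a subunit of mTORC2, was 11.69, 11.64 and 11.66 in wild type and 12.38, 12.37 and 12.36 in knockout, a 1.64-fold rise (0.71 ± 0.040, SE; limma adjusted p = 1.6e-06). Castor2, of the arginine sensor family, rose by 0.49, the Ragulator subunit gene Lamtor4 by 0.39 and the mTORC1 inhibitor gene Ddit4l by 0.34. Ddit4l was not called once wild-type replicate 2 was left out (adjusted p = 0.065), nor without knockout replicate 1 (0.053) or knockout replicate 2 (0.074). Mlst8 (0.13), Sesn2 (0.24), Slc38a9 (0.19) and Tti2 (−0.24) were also called, and were named after their values were seen. Mlst8 was not called once any 1 array was left out, and the others lost their call in some of these fits. Of 8 genes of the GATOR complexes, which signal amino acid supply, taken from this list after their values were seen, Nprl2 rose by 0.27, Mios rose by 0.28 and Depdc5 fell by 0.31. The other 5 were not called: Nprl3 (−0.15), Wdr24 (−0.15), Wdr59 (0.0033), Seh1l (0.066) and Sec13 (0.068). Tbc1d7, the third subunit of the TSC complex and also named after its value was seen, fell by 0.26 but was not called without wild-type replicate 1 or 3 or knockout replicate 2 or 3 (adjusted p from 0.061 to 0.103).

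Other mTORC1 outputs gave 1 that rose and 3 that fell of 16 (25% called, against 19.8% of all genes; median −0.034). Pdcd4, a translation inhibitor that S6 kinase marks for degradation, was 12.55, 12.32 and 12.50 in wild type and 13.06, 13.17 and 13.16 in knockout, a 1.59-fold rise (0.67 ± 0.064, SE; limma adjusted p = 6.1e-05). The autophagy kinase gene Ulk2 fell by 0.24, the stress transcription factor gene Atf4 by 0.205 and the phosphatidate phosphatase gene Lpin1 by 0.17. Lpin1 was not called without wild-type replicate 1 or 3 or knockout replicate 2 or 3 (adjusted p from 0.060 to 0.116).

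Among the FOXO factors, Foxo1 fell, and Foxo3 and Foxo4 were not called (33.3% called, against 19.8% of all genes). Foxo1 was 12.69, 12.68 and 12.59 in wild type and 12.46, 12.46 and 12.41 in knockout. The groups did not overlap, and the fall of 0.21 ± 0.045 (SE; 1.16-fold; limma adjusted p = 0.0094) was called in each of 6 fits that left out 1 array (adjusted p up to 0.043). Foxo3 differed by 0.0034 (95% interval −0.092 to 0.099), with a sign that turned when arrays were centred on their medians, and Foxo4 by −0.017 (−0.11 to 0.080).

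Of the 3 FOXO-linked targets among the members, Txnip rose and the others were not called (33.3% called, against 19.8% of all genes). Txnip, which encodes an inhibitor of thioredoxin and of glucose uptake and whose promoter is printed above, was 12.12, 12.13 and 12.10 in wild type and 12.49, 12.49 and 12.46 in knockout. The knockout values lay well above the wild-type values, and the rise was 0.36 ± 0.039 (SE; 1.28-fold; limma adjusted p = 0.00015). Ccng2, an atypical cyclin linked to cell cycle exit, overlapped between groups and was not called (0.15, limma adjusted p = 0.13), except without knockout replicate 1 (adjusted p = 0.027). Klf2, a quiescence and trafficking factor of lymphocytes, was not called either (−0.10, 95% interval −0.24 to 0.031).

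Of 33 other genes linked to FOXO factors, 8 rose and 7 fell (45.5% called, against 19.8% of all genes; median 0.020). The chemokine receptor gene Ccr7 rose by 0.94 ± 0.053 (SE; limma adjusted p = 1.7e-06) and the death ligand gene Tnfsf10 by 0.71. The sphingosine phosphate receptor gene S1pr1 fell by 0.59 and the stress gene Gadd45b by 0.51. Of the genes known to depend on FOXO1 in B cell precursors, and named here after their values were seen, Il7r fell by 0.31, Rag2 by 0.43 and Blnk by 0.23, whereas Rag1 rose by 0.20. The call of Rag1 was absent without wild-type replicate 1 or 3 or knockout replicate 2 or 3 (adjusted p from 0.052 to 0.094). The other 3 were called in each of those fits. Markers of B cell precursors, a list that holds Rag1, Rag2 and Blnk too, gave 1 that rose and 4 that fell of 12 (41.7% called, against 19.8% of all genes). These markers summed to a linear signal of 127462 to 128186 in wild type and 122738 to 124029 in knockout. Their part in these results was not tested. The cyclin gene Ccnd2, which FOXO factors can repress and which was named after its value was seen, rose by 0.48. The list's remaining called genes were Pik3ip1 (0.34), Klf6 (0.31), Ddit4 (0.28) and Trp53inp1 (0.14), which rose, and Bcl6 (−0.23) and Cat (−0.22), which fell. All of these but Pik3ip1 were named after their values were seen. Trp53inp1 was not called once any 1 array was left out. The other 18 of 33 genes were not called. A link of these changes to the Foxo1 fall was not tested.

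**Figure D3:**
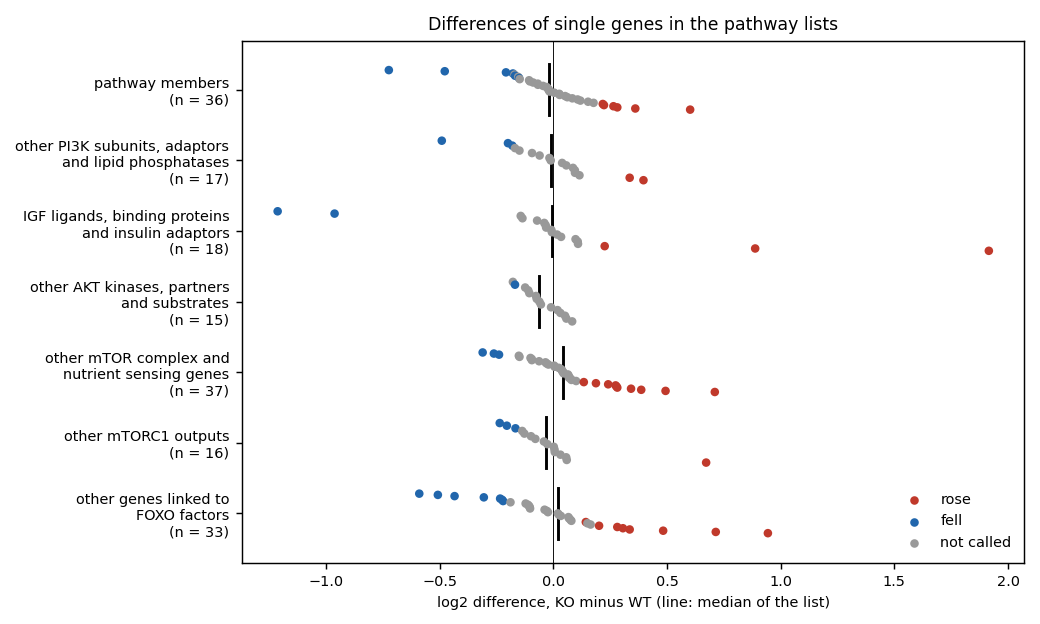
Log2 difference of each gene tested in the pathway members and in 6 lists of other pathway genes, coloured by call, with the list's median as a black line. The medians lie close to 0 (from −0.062 to 0.044), and the widest differences are those of Grb10 (1.92) and Igf1 (−1.21).

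Counted once each, 132 of 140 other pathway genes were tested, of which 22 rose and 19 fell (31.1%, against 19.8% of all genes), with a median of −0.0027. These shares were not matched for signal. Above the median gene signal lay 14 of 17 other PI3K genes, 7 of 18 IGF genes and 14 of 15 AKT genes. So did 31 of 37 mTOR and nutrient sensing genes, 16 of 16 mTORC1 outputs and 27 of 33 FOXO-linked genes. With only genes at or above the median signal tested, 21 other pathway genes rose and 29 fell, against 1769 and 2206 of 9969 genes.

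The log2 ratio of every pair of members within 9 families, 18 pairs in all, was taken on each array. An exact two-sided permutation test of 3 against 3 arrays cannot go below p = 0.1 (0.164 adjusted over the 18 pairs), so no pair could pass 0.05 and the shifts are given as descriptions. Several pairs share a gene. The ratio of Igf1r to Insr was lower by −0.69 on the log2 scale, and that of Pik3r1 to Pik3r3 by −0.71. The ratio of Phlpp1 to Phlpp2 shifted by −0.33, with an SD of 0.0056 in wild type and 0.022 in knockout. Foxo1 shifted by −0.21 against Foxo3 and by −0.19 against Foxo4, and Gsk3a by −0.15 against Gsk3b. Sgk1 and Sgk3 overlapped in their ratio (shift 0.046), as did Foxo3 and Foxo4 (0.020). Among the catalytic subunits, the ratios of Pik3cb and of Pik3cd to Pik3cg shifted by 0.16 and 0.13 without overlap, and the other 4 pairs overlapped. A ratio does not tell which of its genes moved.

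**Figure D4:**
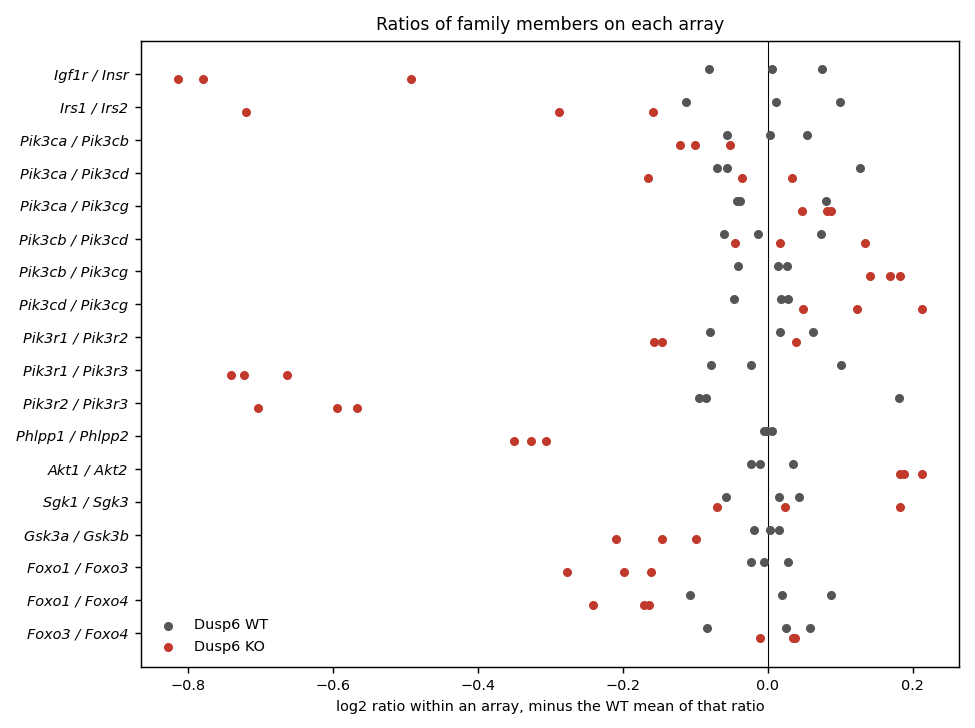
Log2 ratio of 2 members of a family on each array, after subtracting the wild-type mean of that ratio, for 18 pairs; grey points are wild-type arrays and red points knockout arrays. The mean shifts of Igf1r to Insr (−0.69) and of Pik3r1 and Pik3r2 to Pik3r3 (−0.71 and −0.62) are the widest.

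With 1 array left out at a time, Igf1r, Phlpp1, Pik3r3, Txnip, Inpp4b and Foxo1 were called in 6 of 6 fits, Gsk3a in 5, Akt2, Sgk1 and Pik3r5 in 3, Irs2 in 2 and Phlpp2 in 1. The sign of each of these 12 differences was the same in the 6 fits.

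**Figure D5:**
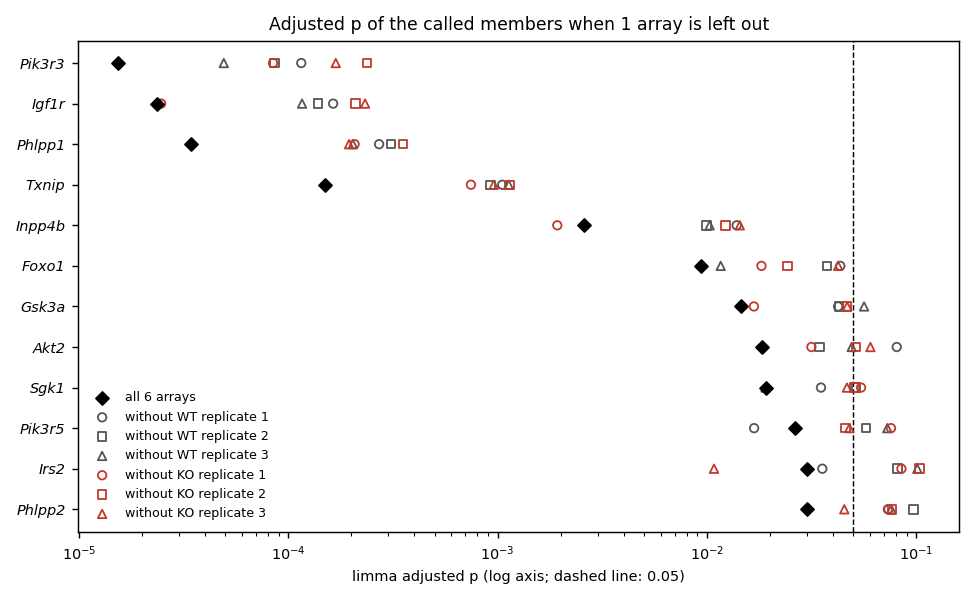
Limma adjusted p (log axis) of the 12 called members with all 6 arrays (black diamonds) and with 1 array left out (open symbols, grey for a wild-type and red for a knockout array); the dashed line marks 0.05. The upper 6 genes stay left of the line, and the lower 6 cross it in at least 1 fit.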

How the data were processed

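Total RNA of 6 samples was measured on Affymetrix arrays, and the deposited table holds 1 value per probe set and array on a log2 scale (read from the values, 3.23 to 14.8, array medians 8.38 to 8.42). The authors used RMA, which corrects background, equalises arrays and summarises probes, and Partek 6.5, per the submitters' processing notes; settings were not given in the sources used here. Precision is limited by the number of arrays.

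Of 35556 probe sets, 21789 were annotated to exactly 1 symbol (1621 several, 12146 none); 21698 of their Entrez identifiers were in the reference table, and 0 symbols were updated. Each gene was represented by its probe set of highest mean (999 genes had several). Genotypes were compared with limma 3.58.1 in R 4.3.3 (lmFit, eBayes, genotype alone, 6 arrays), with Benjamini-Hochberg adjustment over 19938 genes. The fit was tested on simulated data, in which fewer genes were changed than were called here. It recovered 38% of changes of 0.25 on the log2 scale, 88.5% of 0.5 and 99.3% of 1. Of its calls 3.75% were false. A gene not called may therefore still differ by a small amount.

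The members and lists were chosen with earlier results of these data known. The genes named are all members, in each list of other pathway genes up to 4 called genes, taken by absolute difference (with no call, 2 genes taken by p), and Dusp6; others are marked in the text. Deviations of same-numbered arrays from their group means correlated at 0.0098, −0.12 and 0.053, so the numbers were not taken as pairs. Arrays correlated at 0.996 to 0.998 within a genotype and 0.987 to 0.989 between genotypes.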

Additional observations from a re-analysis of the deposited data

How the results depend on the processing

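Alternatives were a repeated quantile normalization, centring, removal of dim genes, the mean of a gene's probe sets, testing every probe set, trend and robust options, a replicate block and leaving out each array; reading a member's other probe set was added after seeing the data. The 12 calls were kept under repeated quantile normalization, centring, and trend and robust options. Testing every probe set, with p-values adjusted over more features, left 3 rising members (Irs2, Pik3r5, Sgk1 and Phlpp2 were lost). The mean of a gene's probe sets lost Akt2. The replicate block gave 6 rising and 5 falling members (Phlpp2 was lost), and 1681 genes higher and 1764 lower overall against 1926 and 2028. Falling genes among the other pathway genes numbered 29 in place of 19 with genes at or above the median signal and with trend and robust options. Rheb, Rptor and Sgk3 were gained with trend and robust options and with either filter on dim genes, and Rptor with centring; the filters removed Pik3r3, and the stricter one also Igf1r and Sgk1. With 1 array left out, rising members numbered 3 to 6, falling members 4 to 6, other pathway genes 18 to 19 rising and 15 to 19 falling, and all genes 1491 to 1730 higher and 1512 to 1959 lower. Wild-type replicate 2 was the array whose removal left 3 rising members. Signs turned only for members that were not called: Foxo3 with centring (−0.0083), without wild-type replicate 3 (−0.015) and without knockout replicate 3 (−0.011); Pik3ca without wild-type replicate 1 (−0.0075); Pik3r2 without wild-type replicate 2 (0.034) and knockout replicate 2 (0.020); Mtor without wild-type replicate 2 (0.012); Foxo4 without wild-type replicate 3 (0.0065); Insr without knockout replicate 1 (0.016); and Irs1 at its other probe set (0.040). With 1 array left out, the differences ranged from −0.015 to 0.021 for Foxo3, −0.0075 to 0.046 for Pik3ca, −0.059 to 0.034 for Pik3r2, −0.044 to 0.012 for Mtor, −0.043 to 0.0065 for Foxo4 and −0.064 to 0.016 for Insr. The cause of these changes was not tested. The smallest called difference of a member was −0.15 (Phlpp2).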
